A study of Mus musculus with 4 samples.

Results

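Vsir, Selplg and Lgals9 were examined as a set of 3 genes, chosen by name out of the 32285 genes counted in both libraries. Vsir encodes VISTA, and Selplg and Lgals9 encode PSGL-1 and galectin-9, proteins reported to bind it. The genes were chosen by their symbols, with earlier results of these data known, and all 3 were measured in every population described here.

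The study grew B16bl6 melanoma in C57BL/6 mice and sequenced single cells sorted as CD4+ and CD8+ tumor-infiltrating lymphocytes (TILs). The VISTA-KO group carried floxed Vsir alleles with CD4cre (Vsir fl/fl CD4cre), and the WT group were Vsir fl/fl littermates without the Cre. The methods give 6 to 8 weeks as an age at tumor inoculation for the survey of tumor models and no separate age for these groups. All mice of both groups received a TRP2 peptide vaccine with CpG and R848 on day 3 and anti-CTLA-4 antibody on days 4 and 8, and tumors were taken 18 days after treatment. Tumors of 5 to 6 mice per genotype were pooled by the account in the methods (6 to 8 tumors by the legend), so each genotype is 1 gene expression library and 1 receptor library, and no difference between genotypes has a replicate check. CD4cre acts in cells of the T lineage, CD8+ T cells included, because thymocytes pass through a stage that expresses Cd4. Myeloid and other host cells keep their Vsir alleles unless they express the Cre.

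VISTA is an inhibitory member of the B7 family that T cells and myeloid cells both carry, and it is described both as a receptor on T cells and as a ligand on other cells. PSGL-1 is the mucin that carries the selectin ligand of leukocytes, and it has been reported to bind VISTA at the acidic pH found in tumors. Its activity depends on tyrosine sulfation and on sialylated, fucosylated O-glycans. Galectin-9 is a secreted lectin best known as a ligand of TIM-3 on exhausted T cells, and its gene is known to respond to interferons.

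Promoter sequence is shown because Lgals9 is known as an interferon-responsive gene and the promoters led to the split by interferon-induced genes given further on. The 160 bases before the annotated start are from RefSeq (GRCm38.p6), written on the strand of the gene, with capitals marking matches to the motif of GAAA, any 2 bases and GAAA again, the core of an interferon-stimulated response element, searched on both strands. Lgals9 (chr11:78984925-78985084, minus strand) is followed by the interferon-induced genes Ifit1 (chr19:34640729-34640888, plus strand) and Ifit3 (chr19:34583369-34583528, plus strand) and by Vsir (chr10:60346691-60346850, plus strand).
Lgals9: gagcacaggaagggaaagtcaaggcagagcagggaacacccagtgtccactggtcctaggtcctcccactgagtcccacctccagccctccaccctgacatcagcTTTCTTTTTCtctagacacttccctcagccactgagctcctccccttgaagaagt
Ifit1: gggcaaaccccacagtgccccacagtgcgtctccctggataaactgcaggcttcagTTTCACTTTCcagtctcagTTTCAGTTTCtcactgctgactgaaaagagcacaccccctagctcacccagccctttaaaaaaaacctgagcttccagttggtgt
Ifit3: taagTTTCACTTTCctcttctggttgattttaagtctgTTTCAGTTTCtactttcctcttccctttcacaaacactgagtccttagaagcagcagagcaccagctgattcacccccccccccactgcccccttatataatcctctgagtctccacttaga
Vsir: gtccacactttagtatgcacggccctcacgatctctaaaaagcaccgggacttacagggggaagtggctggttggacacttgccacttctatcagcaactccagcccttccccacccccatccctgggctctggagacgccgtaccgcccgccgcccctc
The Lgals9 stretch held 1 match, TTTCTTTTTC, from 55 to 46 bases before the start, and a second, TTTCTGTTTC, lay 16 to 25 bases after it, beyond the stretch shown. Ifit1 held 2 matches, at 104 to 95 and at 85 to 76 bases before the start. Ifit3 also held 2, at 156 to 147 and at 122 to 113 bases before it. The Vsir stretch held 0 matches, which says only that these letters are not in this window. The promoter of Selplg was not among the sequences at hand and was not searched. Of 32851 RefSeq promoter windows of 300 bases, 1131 (3.44%) held a match on either strand. The matches are descriptions of sequence and do not locate a bound site.

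In the annotation of GRCm38, the build the reads were aligned to, Vsir spans positions 60346851 to 60430294 of chromosome 10, Selplg 113817798 to 113832528 of chromosome 5, and Lgals9 78962979 to 78984924 of chromosome 11. Vsir lies inside the span of Cdh23 and overlaps Gm17455. Reads could be shared between these genes, but neither neighbour exceeded 2.78 CPM in any population.

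Cells with at least 600 genes and under 30% mitochondrial UMIs were kept, which left 10224 cells in the WT library and 9946 in the library labelled VISTA-KO, with medians of 4723 and 4670.5 UMIs per cell. A UMI is a molecular tag that counts 1 captured transcript. UMIs were summed over the cells of each population and given per 1000000 UMIs of the same cells (CPM). All intervals are exact 95% intervals that cover counting error only. They hold none of the variation between mice, and because gates share cells, intervals between gates are not independent. The populations were defined by UMIs of marker genes. The CD8 gate (at least 1 UMI of Cd8a or Cd8b1 and 0 of Cd4) held 5549 WT cells and 4350 cells of the library labelled VISTA-KO. The conventional CD4 gate (Cd4 without Foxp3) held 1768 and 3048 cells, and the regulatory gate (Cd4 with Foxp3) held 1528 and 1270. Cells with at least 2 UMIs of Siglech numbered 221 and 138, and cells with at least 5 UMIs of C1qa, C1qb and C1qc together numbered 124 and 74.

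The gates were checked against marker lists. Cd3 and related T cell markers summed to 4654 and 4600 CPM in the CD8 gate of the WT and VISTA-KO libraries. All 8 plasmacytoid dendritic cell markers exceeded 20 CPM in the Siglech gate and summed to 13485 and 15574 CPM, but T cell markers were also present there, at 1260 and 631 CPM, and 211 and 124 of its cells also met another gate. The C1q cells carried all 10 macrophage markers (3202 and 6582 CPM) together with 4125 and 3387 CPM of T cell markers, and only 3 and 2 of them had no Cd3 UMI. Both are therefore called Siglech cells and C1q cells by their gate, and the C1q cells are not a macrophage population free of T cells. The conventional CD4 gate carried 897 and 457 CPM of CD8 markers and the regulatory gate 857 and 389 CPM. Plasmacytoid dendritic cell markers summed to 1949 and 984 CPM in the conventional CD4 gate, where 136 and 81 cells also met another gate. The part of these markers, and of the macrophage markers of C1q cells, in the genotype ratios below was not tested. Melanoma markers summed to 10.2 and 194 CPM in the CD8 gate, 204 and 15.7 CPM in the conventional CD4 gate and 5.57 and 189 CPM in the regulatory gate, in at most 5.43% of the cells of any of these gates. These markers differ between the libraries in each T cell gate, and their part in the genotype ratios below was not tested.

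Vsir, the floxed gene, was present at nearly the same level in T cells of both libraries. In the CD8 gate it stood at 112 CPM (108–115) in WT and 111 CPM (107–115) in the library labelled VISTA-KO. The ratio of VISTA-KO to WT was 0.990 (0.945–1.04), so the intervals of the libraries overlapped. In the conventional CD4 gate Vsir stood at 109 CPM (102–115) in WT and at 117 CPM (112–123) in VISTA-KO, a ratio of 1.08 (1.00–1.16). In the regulatory gate it stood at 112 CPM (107–117) and 117 CPM (111–124), a ratio of 1.05 (0.971–1.12). The UMIs are summed over the whole gene, and neither the exons removed by the Cre nor the position of the reads is in the files, so neither the deletion nor the label is checked by this gene. The labels and the methods also differ on whether reads begin at the 5′ or the 3′ end of the transcript.

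The lowest Vsir level was that of the Siglech cells, at 69.5 CPM (59.7–80.5; 178 UMIs) in WT and 50.3 CPM (39.4–63.4; 72 UMIs) in the library labelled VISTA-KO. This gate was below each other gate in both libraries, and the ratio to the CD8 gate was 0.622 (0.532–0.723) in WT and 0.455 (0.355–0.574) in VISTA-KO. The VISTA-KO to WT ratio in Siglech cells was 0.724 (0.543–0.957), the Vsir ratio farthest from 1 among the 5 gates. T cell markers in this gate were also lower in VISTA-KO (631 against 1260 CPM), and their part in the ratio was not tested. Among Siglech cells with no Cd3 UMI (127 and 96 cells) Vsir stood at 68.6 and 38.5 CPM, a ratio of 0.561. C1q cells carried 106 CPM (92.0–121) and 125 CPM (101–154) of Vsir, a ratio of 1.18 (0.916–1.52), and did not differ from the T cell gates beyond counting error.

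Selplg, the gene of PSGL-1, was highest in Siglech cells of both libraries. It stood there at 1452 CPM (1406–1500) in WT and 1355 CPM (1296–1417) in the library labelled VISTA-KO. The CD8 gate carried 959 CPM (949–969) and 932 CPM (921–943), so the ratio of Siglech cells to the CD8 gate was 1.51 (1.46–1.57) in WT and 1.45 (1.39–1.52) in VISTA-KO. C1q cells were lowest, at 764 CPM (727–803) and 748 CPM (686–813), 0.797 and 0.802 times the CD8 gate. The CD4 gates lay between. Conventional CD4 cells carried 866 CPM (849–884) and 878 CPM (864–893), and regulatory cells 855 CPM (842–869) and 915 CPM (896–934).

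Between libraries, Selplg moved by little in each gate. The ratio of VISTA-KO to WT was 0.972 (0.956–0.987) in the CD8 gate, 1.01 (0.988–1.04) in conventional CD4 cells and 1.07 (1.04–1.10) in regulatory cells. In Siglech cells it was 0.933 (0.883–0.986) and in C1q cells 0.978 (0.885–1.08). Without the cells shared with the Siglech or C1q gate, the conventional CD4 ratio was 1.08. The CD8 ratio depended on the largest clonotypes: without that of each library, 1034 cells of the WT gate and 291 of the VISTA-KO gate left out together, it was 1.02, and the Vsir ratio in the same gate was 1.04.

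Lgals9, the gene of galectin-9, was lowest in Siglech cells of both libraries and differed little among the other gates. Siglech cells carried 129 CPM (115–144) in WT and 159 CPM (139–181) in the library labelled VISTA-KO. The CD8 gate carried 168 CPM (164–172) and 182 CPM (177–187). The ratio of Siglech cells to the CD8 gate was thus 0.768 (0.685–0.858) and 0.870 (0.759–0.994). Conventional CD4 cells stood at 185 CPM (177–193) and 193 CPM (187–200), regulatory cells at 178 CPM (172–184) and 205 CPM (196–214), and C1q cells at 182 CPM (164–202) and 206 CPM (174–242). Each of these was above the CD8 gate in both libraries, by at most 1.13 times, in the C1q cells within counting error. The C1q cells and the CD4 gates did not keep 1 order between libraries.

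By CPM, Lgals9 was higher in VISTA-KO than in WT in each of the 5 gates, by small ratios. The ratio was 1.09 (1.05–1.13) in the CD8 gate, 1.05 (0.988–1.11) in conventional CD4 cells and 1.15 (1.09–1.22) in regulatory cells. In Siglech cells it was 1.23 (1.04–1.46) and in C1q cells 1.13 (0.925–1.37). The intervals of the conventional CD4 and C1q gates include 1. By mean UMIs per cell the ratio was 0.904 in conventional CD4, 0.728 in regulatory and 0.661 in C1q cells. In conventional CD4 cells it was also 0.987 with doubled gate thresholds and 0.993 by the mean of the CPM of each cell. Under 8000 UMIs per cell the bins of depth described further on were below 1 in the CD8 gate (0.968 and 0.989) and in conventional CD4 cells (0.947 and 0.955). The gates share cells and come from the same pair of libraries, so the direction they have in common is not counted as 5 observations.

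**Figure D1:**
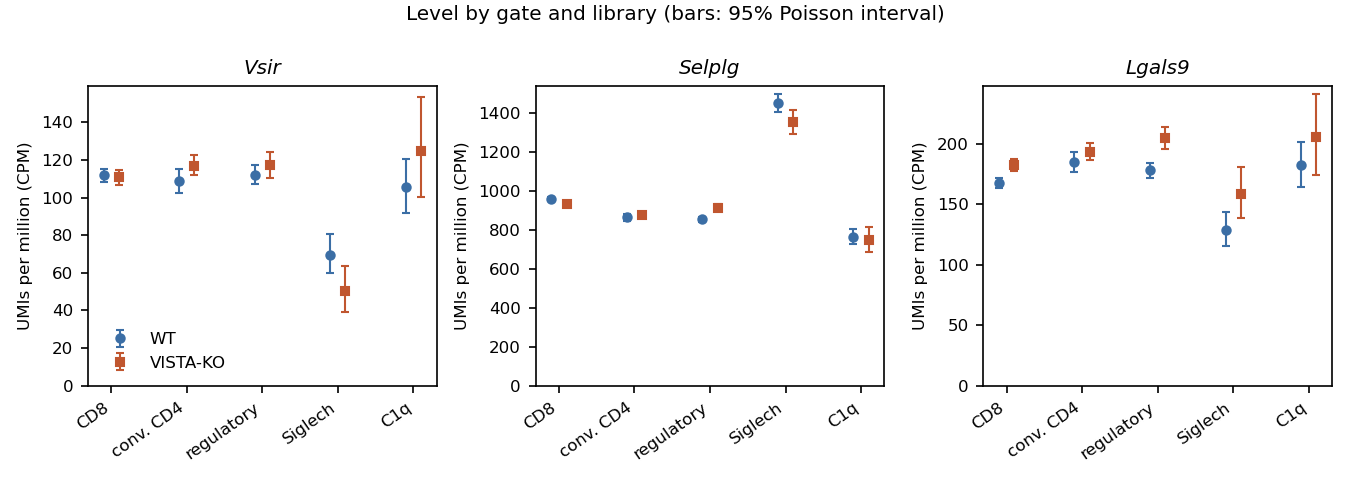
Level of Vsir, Selplg and Lgals9 (CPM, linear axis from 0) in the 5 gates of the WT library and the library labelled VISTA-KO; points are summed CPM and error bars exact 95% intervals of counting error. Siglech cells are lowest for Vsir and Lgals9 and highest for Selplg in both libraries, and the libraries lie close together in the T cell gates.

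None of the 15 ratios of VISTA-KO to WT (3 genes in 5 gates) passed 1.5-fold. The Vsir ratio in Siglech cells did so, at 0.549, when cells with signs of doublets in the receptor reads were left out, and at 0.561 and 0.630 without cells with Cd3 UMIs and without the 5% of cells with most UMIs. The share of all compared genes that did so, after 5 CPM was added to each level, was 0.822% higher and 0.575% lower of 6083 genes in the CD8 gate, 1.07% and 2.21% in conventional CD4 cells, and 1.94% and 1.89% in regulatory cells. It was 1.87% and 3.92% in Siglech cells, and 8% and 6.51% in C1q cells. A count of 0 of 3 members is near these background shares and is not a result about the members. The median log2 ratio of all compared genes lay between -0.04 and -0.01 in the 5 gates. Between gates, 0 of the 3 members differed from the CD8 gate by 2-fold in both libraries, against 11.5% of 7041 genes called higher and 6.9% called lower in Siglech cells, 3.38% and 0.0298% in C1q cells, 2.27% and 0.752% in regulatory cells, and 0.998% and 0.292% in conventional CD4 cells.

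The gates differ in depth: Siglech cells had medians of 9181 and 9485.5 UMIs against 4848 and 5224.5 in the CD8 gate. Siglech cells were therefore set against CD8 cells of the same depth. Among cells with 8000 to under 16000 UMIs (117 and 93 Siglech cells), the ratio of Siglech to CD8 cells was 0.713 (0.568–0.884) and 0.514 (0.381–0.681) for Vsir. For Selplg it was 1.81 (1.73–1.90) and 1.57 (1.48–1.67). For Lgals9 it was 0.848 (0.720–0.994) in WT and 0.929 (0.791–1.08) in VISTA-KO, whose interval includes 1. Among cells with 4000 to under 8000 UMIs (55 and 33 Siglech cells), the ratio was 0.471 (0.301–0.703) and 0.237 (0.0951–0.489) for Vsir, 1.33 (1.22–1.45) and 1.33 (1.19–1.49) for Selplg, and 0.507 (0.356–0.701) and 0.434 (0.261–0.679) for Lgals9. The direction was thus the same in both bins, while the Selplg ratio lay farther from 1 than without matching in the deeper bin and nearer to 1 in the other. Without depth matching, Siglech cells with no Cd3 UMI had a higher Selplg CPM (1722 and 1472) than those with one (1265 and 1181). Those with a Cd3 UMI were deeper, with medians of 13313 and 13146 against 8309 and 8690 UMIs. They carried more Selplg UMIs per cell, 20.3 and 16.1 against 14.2 and 13.1.

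After each cell was thinned to 2000 UMIs, 21.4% (20.3–22.6) of 5259 WT cells and 22.02% (20.8–23.3) of 4164 VISTA-KO cells of the CD8 gate kept a Vsir UMI (47.4% and 47.1% of all gate cells without thinning), with 290 and 186 shallower cells left out. In Siglech cells the thinned share was 9.55% (6.01–14.2) of 220 WT cells and 10.2% (5.70–16.6) of 137 VISTA-KO cells, with 1 cell left out in each (44.8% and 37.7% without thinning). The Siglech share was below the CD8 share in both libraries. For Selplg the thinned share was 84.5% and 82.9% in the CD8 gate and 90.9% and 90.5% in Siglech cells, against 97.1% and 96.7% and 100% in both libraries without thinning. For Lgals9 it was 29.7% and 29.6% in the CD8 gate and 19.1% and 28.5% in Siglech cells, against 57.6% and 59.2%, and 60.6% and 65.2%, without thinning. No population among these cells is known to lack the 3 genes, so the share that free RNA alone would give was not measured.

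Within the CD8 gate, cells with more UMIs carried a smaller share of Vsir and Selplg UMIs. In WT, Vsir stood at 140 CPM in cells with under 4000 UMIs, 137 CPM from 4000 to under 8000, 104 CPM from 8000 to under 16000 and 66.5 CPM at 16000 or more. In VISTA-KO the levels were 138, 131, 102 and 49.4 CPM in the same order of depth. The deepest cells thus stood at 0.476 (0.427–0.531) and 0.358 (0.304–0.420) times the shallowest, while the mean number of Vsir UMIs per cell was 0.414 in the shallowest and 1.57 in the deepest WT cells, and 0.413 and 1.12 in those of VISTA-KO. Both libraries thus show a decline of the share, steeper in VISTA-KO by intervals that do not overlap, and not of the UMIs per cell. The total that sorts the cells into bins is also the denominator of CPM.

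Selplg also declined, from 1213 CPM in the shallowest to 628 CPM in the deepest WT cells and from 1110 to 608 CPM in VISTA-KO, ratios of 0.518 (0.4999–0.537) and 0.548 (0.521–0.575). Lgals9 stood at 175, 196, 164 and 126 CPM in WT and at 170, 194, 195 and 138 CPM in VISTA-KO, with a ratio of deepest to shallowest of 0.719 and 0.814. Vsir and Selplg thus passed 1.5-fold lower in both libraries and Lgals9 did not, where 19.9% of 6987 compared genes were called lower and 14.6% higher. In the conventional CD4 gate the Vsir ratio was 0.545 in WT and 0.748 in VISTA-KO, and in the regulatory gate 0.625 and 0.719.

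**Figure D2:**
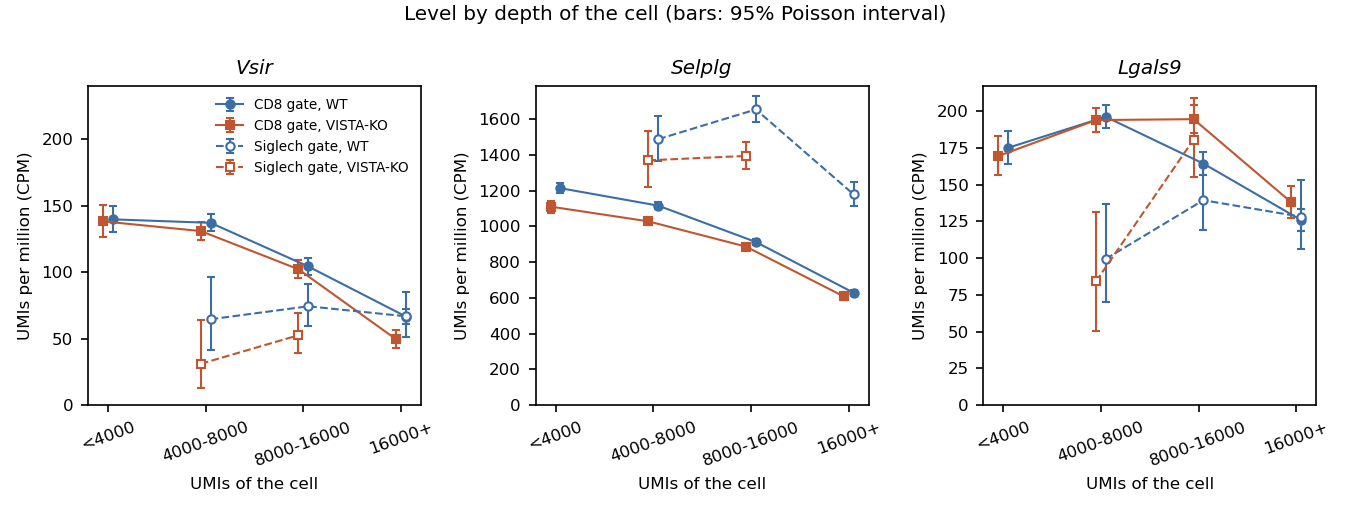
Level of each gene (CPM) against the number of UMIs in the cell, in 4 bins, for CD8 and Siglech cells of each library, with exact 95% intervals; bins with under 20 cells are not shown. Vsir and Selplg decline with depth in the CD8 gate of both libraries, Vsir from 140 to 66.5 CPM in WT.

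The libraries were also compared within bins of depth, in which cells can still differ in depth. In the CD8 gate the Vsir ratio of VISTA-KO to WT was 0.989, 0.955 and 0.980 in the first 3 bins of depth and 0.743 (0.633–0.868) at 16000 UMIs or more, a bin of 382 WT and 194 VISTA-KO cells. The Selplg ratio was 0.915, 0.921, 0.971 and 0.967 in the same bins. The Lgals9 ratio was 0.968, 0.989, 1.18 and 1.10, so the higher level in VISTA-KO lay in cells with 8000 UMIs or more. In conventional CD4 cells the Vsir ratio was 0.953, 0.992, 1.04 and 1.31 (1.04–1.65). In regulatory cells, whose medians were 8838.5 UMIs in WT and 5939 in VISTA-KO, the Lgals9 ratio was 1.04, 1.17, 0.992 and 1.11 and the Selplg ratio 1.12, 1.02, 0.970 and 0.915. The Selplg ratio there thus lay on both sides of 1 over the bins of depth. The Vsir ratio in regulatory cells was 0.858, 0.824 (0.713–0.952), 1.02 and 0.986, against 1.05 over all depths. In Siglech cells the Vsir ratio was 0.481 (0.175–1.15) at 4000 to under 8000 UMIs (55 WT and 33 VISTA-KO cells). It was 0.707 (0.493–1.01) at 8000 to under 16000 UMIs (117 and 93 cells), and each interval includes 1.

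T cells of the CD8 gate were then split by UMIs of genes that mark cell states. Dividing cells, with at least 2 UMIs of Mki67 and Top2a together, carried less Vsir than cells with none: 70.9 against 127 CPM in WT (647 and 4081 cells) and 68.9 against 129 CPM in VISTA-KO (554 and 3204 cells). The ratios were 0.557 (0.512–0.604) and 0.536 (0.485–0.591), past 1.5-fold lower in both libraries, as were 5.63% of 6639 compared genes. Dividing cells had medians of 14037 and 10831 UMIs against 4436 and 4809 in the others. Among cells with 4000 to under 8000 UMIs the Vsir ratio was 1.22 (0.986–1.49) in WT and 0.860 (0.691–1.06) in VISTA-KO, on opposite sides of 1 and each with an interval that includes 1. The lower level in dividing cells was thus not seen in WT in this bin, and in VISTA-KO it lay within counting error. The bin held 106 of the 647 WT and 131 of the 554 VISTA-KO dividing cells. With each cell thinned to 2000 UMIs, the Vsir ratio was 0.660 and 0.654.

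Selplg stood at 664 CPM in dividing and 1089 CPM in other WT cells, and at 729 and 1008 CPM in VISTA-KO. Its ratio was 0.610 and 0.723 over all depths and 0.928 (0.856–1.00) and 0.988 (0.919–1.06) at matched depth. The Lgals9 ratio was 0.730 and 0.805 over all depths and 1.03 (0.854–1.23) and 0.856 (0.714–1.02) at matched depth. For each gene the difference was smaller at matched depth, and depth and division cannot be told apart over the whole gate.

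Cells with a UMI of Tnfrsf9, the gene of the costimulatory receptor 4-1BB on activated T cells, were deeper too, with medians of 9179.5 and 8128.5 UMIs against 4330 and 4795.5. Vsir stood at 84.7 against 134 CPM in WT and 85.3 against 125 CPM in VISTA-KO, ratios of 0.631 (0.592–0.673) and 0.680 (0.629–0.736). Only the WT ratio passed 1.5-fold, and 4.35% of 6478 genes were called lower in both libraries. At matched depth the ratios were 0.869 (0.767–0.983) and 0.816 (0.710–0.934), below 1 in both. Selplg was 0.878 and 0.882 times at matched depth, also below 1 beyond counting error in both libraries.

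Havcr2, the gene of TIM-3, and Pdcd1, the gene of PD-1, mark exhausted cells. Vsir in cells with a Havcr2 UMI was 0.696 and 0.841 times that of cells without, and 0.974 and 0.989 times at matched depth. With Pdcd1 the ratios were 0.858 (0.804–0.915) and 0.837, and 1.14 (1.04–1.26) and 0.989 (0.894–1.09) at matched depth. The WT ratio with Pdcd1 thus lay below 1 over all depths and above 1 at matched depth, each beyond counting error. Cells with Itgae, the gene of the tissue-residence integrin CD103, carried 118 against 111 CPM of Vsir in WT and 132 against 109 CPM in VISTA-KO, ratios of 1.06 (0.959–1.18) and 1.22 (1.08–1.36), and 1.16 and 1.21 at matched depth.

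In the conventional CD4 gate, cells with a UMI of Tcf7, which encodes the transcription factor TCF-1 of naive and memory-like T cells, carried more Vsir than cells without. The levels were 120 against 95.1 CPM in WT and 130 against 101 CPM in VISTA-KO. The ratios, 1.27 (1.13–1.43) and 1.28 (1.16–1.41), lay close together in the libraries, and the depths of the cells were alike, with medians of 4301 against 3879 and 4308 against 4122.5 UMIs. At matched depth they were 1.17 (0.944–1.46) and 1.26 (1.10–1.46). Cells with Ccr7, the homing receptor of naive T cells, carried less Selplg in both libraries, 790 against 883 CPM in WT and 733 against 912 CPM in VISTA-KO, and 0.844 and 0.808 times at matched depth. None of these ratios passed 1.5-fold in both libraries, where 0.75% of genes were called higher with Tcf7 and 2.32% lower with Ccr7. At matched depth the Selplg ratio with Ccr7 was 0.844 and 0.845 in the CD8 gate. It was 0.868 (0.745–1.01) and 0.790 in regulatory cells. The Vsir ratio with Tcf7 was 0.947 and 1.03 in the CD8 gate and 0.803 and 1.22 in regulatory cells, each with an interval that includes 1.

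**Figure D3:**
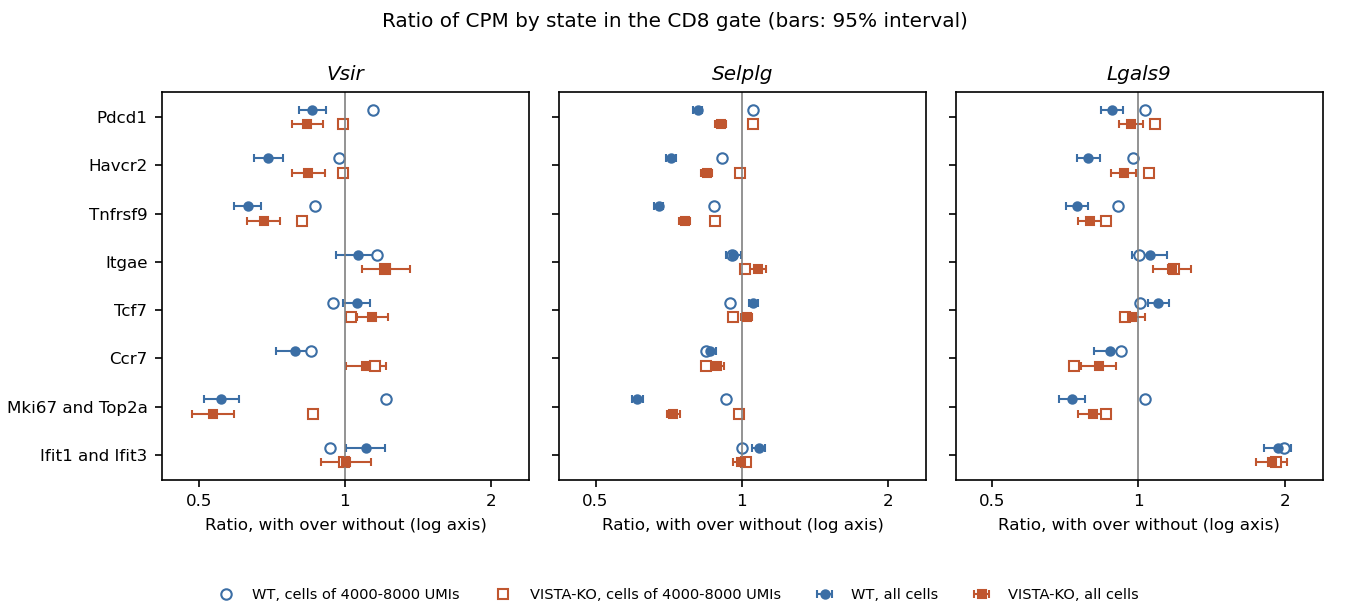
Ratio of the level in CD8-gate cells with a state marker to that in cells without it (log axis), for each gene and library, for all cells (filled, with exact 95% intervals) and for cells with 4000 to under 8000 UMIs (open). Ratios of Vsir in dividing cells are 0.557 and 0.536 over all depths. In the bin of 4000 to under 8000 UMIs they are 1.22 and 0.860, each with an interval that includes 1. The Lgals9 ratio in Ifit cells stays near 1.9 to 2.0.

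Lgals9 differed most with interferon-induced genes, a split added after the promoter sequences had been seen. Ifit1 and Ifit3 encode antiviral proteins that bind RNA or signalling partners and are among the genes most strongly induced by type I interferon. In the CD8 gate, cells with at least 2 UMIs of the pair carried 287 CPM (271–304) of Lgals9 against 148 CPM (144–153) in cells with none in WT, and 307 CPM (287–328) against 163 CPM (158–168) in VISTA-KO. The ratios were 1.93 (1.81–2.06; 599 and 4393 cells) and 1.88 (1.75–2.03; 414 and 3468 cells). Lgals9 was 1 of 176 genes past 1.5-fold higher in both libraries, 2.77% of the 6359 compared. The depths were close, with medians of 4969 against 4828 UMIs in WT and 5457.5 against 5204.5 in VISTA-KO. At matched depth the ratios were 1.99 (1.81–2.19) and 1.92 (1.72–2.14), and without dividing cells they were 2.06 and 1.94.

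The level was graded. In WT cells of the CD8 gate with 0, 1, 2 to 4 and 5 or more UMIs of the pair, Lgals9 stood at 148, 184, 227 and 368 CPM. In VISTA-KO it stood at 163, 209, 247 and 382 CPM in the same bins. Each step was upward in both libraries. Over the same bins Vsir stood at 108, 134, 130 and 104 CPM in WT and at 110, 113, 118 and 102 CPM in VISTA-KO, and Selplg at 943, 1009, 1023 and 1023 CPM and at 926, 983, 925 and 924 CPM. Vsir did not go upward throughout in either library, and Selplg did so only in WT, by small steps. The ratio with Ifit UMIs was 1.10 and 1.01 for Vsir and 1.08 and 0.999 for Selplg.

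The CD4 gates gave the same direction for Lgals9. Conventional CD4 cells with Ifit UMIs carried 304 against 164 CPM in WT and 290 against 177 CPM in VISTA-KO, ratios of 1.85 (1.65–2.06) and 1.64 (1.48–1.81), past 1.5-fold in both, as were 2.34% of genes. Over the 4 bins the levels were 164, 190, 219 and 421 CPM in WT and, in the same bins, 177, 226, 270 and 325 CPM in VISTA-KO. Regulatory cells carried 218 against 162 CPM in WT and 317 against 180 CPM in VISTA-KO, ratios of 1.34 and 1.76, so only the VISTA-KO ratio passed 1.5-fold (1.42% of genes passed in both). WT regulatory cells with 2 to 4 and with 5 or more Ifit UMIs had medians of 15442 and 15862 UMIs, against 7553 in those with 0. At matched depth the regulatory ratios were 1.76 (1.28–2.38) in WT and 2.15 (1.76–2.62) in VISTA-KO. That bin held 26 of 209 WT and 51 of 118 VISTA-KO Ifit cells. Without dividing cells the regulatory ratios were 1.24 (1.06–1.43) and 1.94 (1.66–2.27). With genes that the Ifit split did not use, the difference was smaller: CD8-gate cells with no Ifit UMI and at least 2 UMIs of Isg15, Rsad2 and Oasl2 carried 1.17 (1.05–1.31) and 1.28 (1.15–1.41) times the Lgals9 level of cells with none of these. The ratio was 1.18 (1.01–1.38) and 1.18 (1.04–1.33) in conventional CD4 cells, and 1.04 (0.913–1.18) and 1.21 (1.06–1.38) in regulatory cells, where the WT interval includes 1. These CD8-gate cells were deeper than those with none, with medians of 7411 against 4646 UMIs in WT and 7090 against 4905 in VISTA-KO, and the requirement of 0 Ifit UMIs leaves out the cells with most of them.

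Ifit cells made up 10.8% of the WT and 9.52% of the VISTA-KO cells of the CD8 gate, 9.84% and 7.38% of conventional CD4 cells and 13.7% and 9.29% of regulatory cells. The share of cells with 2 UMIs depends on depth, which differed most in regulatory cells (medians of 8838.5 and 5939 UMIs). By level, Ifit1 stood at 46.7 and 50.9 CPM in the CD8 gate, 67.3 and 49.3 CPM in conventional CD4 cells and 39.1 and 50.1 CPM in regulatory cells, and Ifit3 at 72.2 and 63.2, 71.4 and 46.1, and 35.7 and 37.6 CPM. The shares were thus lower in VISTA-KO in each of the 3 gates, while the levels did not differ in 1 direction between libraries. The part of shares and levels in the Lgals9 ratios of VISTA-KO to WT was not tested. In Siglech cells, where Lgals9 was lowest, Ifit1 stood at 17.2 CPM in WT and at 5.59 CPM in VISTA-KO, below its level in the CD8 gate. A relation of this to the Lgals9 level of Siglech cells was not tested.

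**Figure D4:**
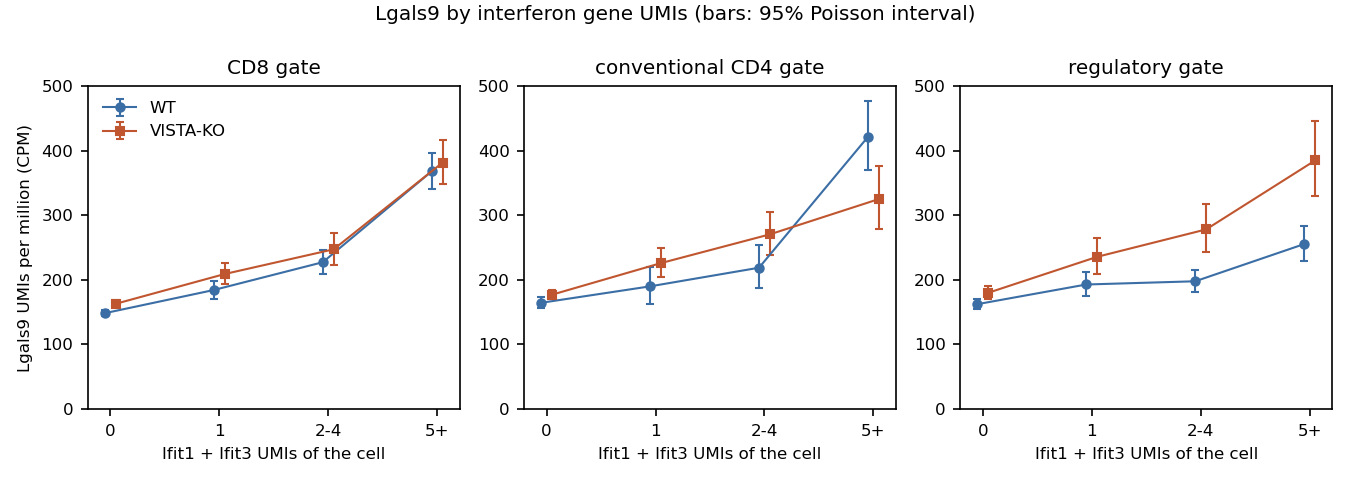
Level of Lgals9 (CPM) in cells with 0, 1, 2 to 4 and 5 or more UMIs of Ifit1 and Ifit3, in the 3 T cell gates of each library, with exact 95% intervals. In the CD8 gate the level is higher at each step, from 148 to 368 CPM in WT and from 163 to 382 CPM in VISTA-KO.

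The receptor libraries allowed the CD8 gate to be split by clonotype, the cells that share their T cell receptor chains. In WT, Vsir stood at 120 CPM in cells alone in their clonotype, 104 CPM in clonotypes of 2 to 9 cells, 94.3 CPM in other clonotypes of 10 or more and 155 CPM in the largest clonotype. In VISTA-KO the levels were 122, 104, 94.9 and 128 CPM in the same order. In both libraries the largest clonotype thus stood above the rest of the large ones, by 1.65 times (1.499–1.81) in WT and 1.35 times (1.17–1.56) in VISTA-KO. Among cells with 4000 to under 8000 UMIs the ratios were 1.27 (1.12–1.45) and 1.38 (1.13–1.69).

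Selplg was 1268 CPM in the largest and 851 CPM in the other large clonotypes of WT, and 964 and 871 CPM in VISTA-KO, ratios of 1.49 and 1.11, and 1.23 (1.18–1.29) and 1.12 (1.05–1.21) at matched depth. Lgals9 was 195 against 147 CPM and 219 against 173 CPM, ratios of 1.32 and 1.27, and 1.08 (0.971–1.21) and 1.26 (1.08–1.48) at matched depth. Each library has 1 largest clonotype and the cells of a clonotype share their origin, so this compares 2 clones with the clones beside them. Among the 5 WT and 3 VISTA-KO clonotypes of at least 50 cells, Vsir ranged from 67.6 to 155 CPM and from 61.7 to 128 CPM, Selplg from 632 to 1268 CPM and from 625 to 964 CPM, and Lgals9 from 112 to 195 CPM and from 119 to 219 CPM. The lowest Vsir and Selplg levels were in the clonotype of rank 3 by size in each library (79 and 60 cells). Its cells had medians of 11265 and 11104.5 UMIs, against 4665.5 and 6474 in the largest clonotype, and these ranges were not matched for depth.

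**Figure D5:**
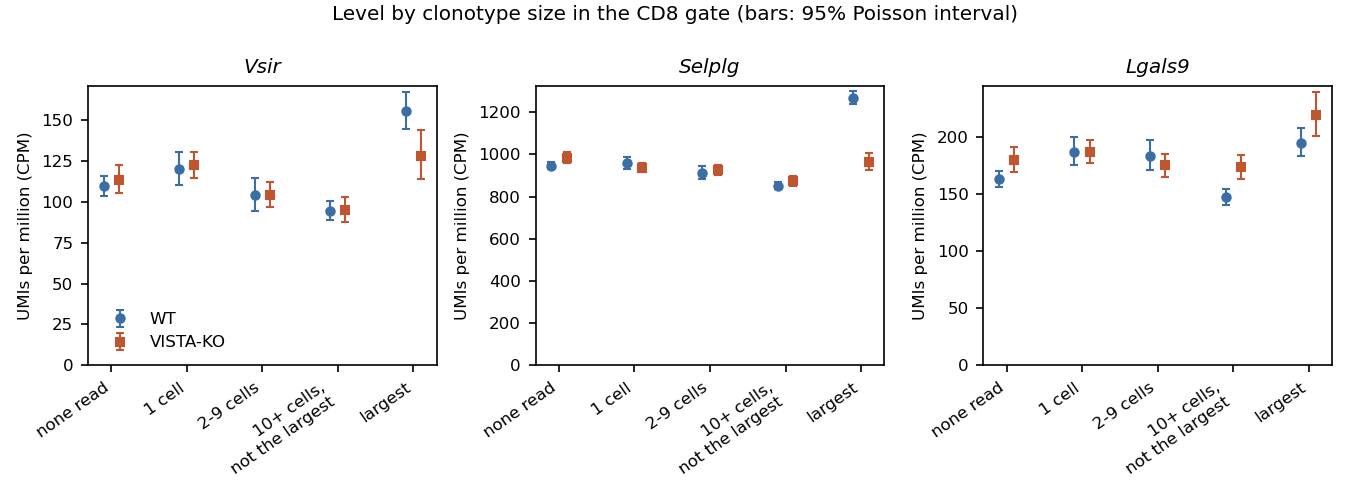
Level of each gene (CPM) by clonotype size in the CD8 gate of each library, with exact 95% intervals. Cells under none read lack a pair of productive alpha and beta chains. The others are cells alone in their clonotype, clonotypes of 2 to 9 cells, other clonotypes of 10 or more cells and the largest clonotype. Vsir is highest in the largest clonotype of both libraries (155 and 128 CPM). In VISTA-KO the interval of that level (114–144) holds the level of cells alone in their clonotype.

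Further genes of the 3 pathways were taken from lists, and a gene was compared where its level reached 20 CPM in either group compared. Of the 32285 genes counted, 6083 reached that level in the CD8 gate of either library. Other proteins reported to bind VISTA (Lrig1, Igsf11, Vsig8 and Sdc2) were low, with 0 of 4 reaching that level in any gate. Lrig1 was the highest of them, at 7.53 and 6.58 CPM in the CD8 gate, 15.3 and 14.3 CPM in conventional CD4 cells and 7.87 and 16.4 CPM in regulatory cells, where the ratio of VISTA-KO to WT was 2.09 (1.65–2.63; 144 and 158 UMIs). Its level there kept it out of the comparison.

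Of 11 enzymes that sulfate PSGL-1 or build its glycans, 5 to 6 were compared in each case. Tpst2, a tyrosylprotein sulfotransferase, stood at 191 and 189 CPM in the CD8 gate and at 80.8 and 60.8 CPM in Siglech cells, where Selplg was highest, and was the 1 enzyme called 2-fold lower there, against 6.9% of all compared genes. Its relative Tpst1 was at 4.43 and 4.51 CPM in the CD8 gate. St3gal6, a sialyltransferase of selectin ligands, was the 1 enzyme called lower in regulatory cells, at 30.1 and 28.2 CPM against 79.4 and 81.8 CPM, where 0.752% of all genes were called lower. Fut7, the leukocyte fucosyltransferase that completes the selectin ligand, stood at 14.3 and 12.7 CPM in the CD8 gate and 29.2 and 24.7 CPM in regulatory cells. Between libraries 0 of 5 to 6 passed 1.5-fold in the gates other than C1q. In those gates 0.822% to 1.94% of all compared genes were called higher and 0.575% to 3.92% lower. A count of 0 is near these shares. In C1q cells St3gal6 passed it (46.7 and 75.0 CPM), where 8% of all compared genes were called higher. In the CD8 gate the list's median log2 ratio was 0.04, beside -0.02 over all compared genes.

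Of 9 selectins, chemokines and intracellular partners of PSGL-1, 5 were compared. Msn, the gene of moesin, which links PSGL-1 to the cytoskeleton, stood at 612 and 623 CPM in the CD8 gate and differed by 2-fold from it in 0 of 4 gates. Selp, Sele, Ccl19 and Ccl21a, whose products come mainly from endothelial and stromal cells, were at most 0.78 CPM.

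Of 7 proteins reported to bind galectin-9, 5 to 6 were compared. In Siglech cells the TIM-3 gene Havcr2 (23.4 and 9.79 CPM against 54.9 and 74.1 CPM in the CD8 gate) and Pdcd1 (114 and 62.2 CPM against 485 and 422 CPM) were called lower. The adhesion receptor gene Cd44 (243 and 271 CPM against 90.3 and 94.0 CPM) and the costimulatory receptor gene Cd40 (25.4 and 16.1 CPM against 3.98 and 1.27 CPM) were called higher. Tnfrsf9 was called higher in regulatory cells, at 764 and 882 CPM against 240 and 210 CPM. Tnfrsf25, the gene of death receptor 3, was called higher in conventional CD4 cells, at 36.9 and 48.0 CPM against 6.65 and 8.38 CPM. Of all compared genes, 11.5% were called higher and 6.9% lower in Siglech cells. In regulatory and conventional CD4 cells 2.27% and 0.998% were called higher.

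Between libraries, Havcr2 was called lower in conventional CD4 cells of VISTA-KO (33.6 and 20.4 CPM, ratio 0.606), and Pdcd1 in regulatory cells (368 and 215 CPM, ratio 0.585). Of all compared genes, 2.21% and 1.89% were called lower in these gates. The CD8 gate carries both genes, and CD8 markers also differed between libraries in these gates. They summed to 897 and 457 CPM in conventional CD4 and 857 and 389 CPM in regulatory cells, and their part was not tested. The Pdcd1 ratio was also below 1 in the CD8 gate (0.871), conventional CD4 (0.676), Siglech (0.544) and C1q cells (0.555). The Havcr2 ratio was 0.665 in regulatory, 0.418 in Siglech and 0.653 in C1q cells, but 1.35 in the CD8 gate. Tnfrsf25 was called higher in regulatory cells of VISTA-KO (15.7 and 36.3 CPM, ratio 2.31), as were 1.94% of all compared genes. In C1q cells Pdcd1 (478 and 265 CPM) and Tnfrsf9 (366 and 139 CPM) were called lower, as were 6.51% of all compared genes. Cd40 was called higher there (6.81 and 27.8 CPM, from 14 and 20 UMIs), as were 8% of all compared genes. Macrophage markers in C1q cells summed to 3202 and 6582 CPM and T cell markers to 4125 and 3387 CPM. Their part in the differences in that gate was not tested. In the CD8 gate 0 of 5 compared genes of the galectin-9 list passed 1.5-fold. Of all compared genes, 0.822% were called higher and 0.575% lower there. A count of 0 is near these shares and is not a result about the list. In Siglech cells the list median was -0.68 on the log2 scale, beside -0.02 over all compared genes. There 3 of 6 genes of the list were lower in VISTA-KO, where 3.92% of all compared genes were called lower. The 3 were Havcr2 (23.4 and 9.79 CPM), Pdcd1 (114 and 62.2 CPM) and Tnfrsf9 (178 and 60.8 CPM). T cells also carry these genes, T cell markers in that gate summed to 1260 and 631 CPM, and their part in these differences was not tested.

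Among 8 galectins, 7 of which are in the files, 3 were compared. Lgals1 stood at 1784 and 1808 CPM in the CD8 gate. Lgals3, a galectin abundant in macrophages, stood at 269 and 225 CPM in the CD8 gate and 715 and 1592 CPM in C1q cells. It was called higher in C1q cells, as were 3.38% of all compared genes. Of 7 other ligands of the B7 family, 3 to 4 were compared with the CD8 gate. Pdcd1lg2, the gene of PD-L2, was called higher in regulatory cells (51.6 and 62.1 CPM against 20.9 and 23.3 CPM), as were 2.27% of all compared genes. Cd86 was called lower in Siglech cells (14.8 and 11.2 CPM against 36.7 and 43.2 CPM), as were 6.9% of all compared genes. Cd274, the gene of PD-L1, passed 1.5-fold between libraries in regulatory cells, at 54.7 CPM in WT and at 103 CPM in VISTA-KO. Macrophage markers in that gate summed to 170 and 91.9 CPM. Cd274 also passed it in C1q cells (34.6 and 86.1 CPM, ratio 2.49), where macrophage markers summed to 3202 and 6582 CPM. The part of these markers in either Cd274 ratio was not tested. Of all compared genes, 1.94% were called higher in regulatory and 8% in C1q cells. The Cd274 ratio was 1.36 in the CD8 gate, 1.43 in conventional CD4 cells and 0.949 in Siglech cells.

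The members were detected together about as often as their separate shares would give. After thinning to 2000 UMIs, 18.5% (17.5–19.6) of WT cells of the CD8 gate held a UMI of both Vsir and Selplg, and the product of the separate shares was 18.1%. For Vsir and Lgals9 the values were 6.14% and 6.37%, and for Selplg and Lgals9 25.7% and 25.1%. At this depth an absent UMI does not show an absent transcript.

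The T cell gates were divided by state and joined with the Siglech and C1q cells into 11 groups, giving 22 points over the 2 libraries that share 1 source each. Over these points, Pearson's r between the log2 levels of Vsir and Lgals9 was 0.714, that of Vsir and Selplg -0.171 and that of Selplg and Lgals9 -0.0215. The genes most like Vsir among 8112 were Paip2 (0.924), Arhgap45 (0.916), Ube2h (0.901), Gimap3 (0.892) and Galnt6 (0.892). Those most like Selplg were Limd1 (0.899), Kdm4a (0.883), Commd7 (0.880), Slc25a53 (0.878) and Usp18 (0.875). Those most like Lgals9 were Usp25 (0.906), Zfand3 (0.885), Stk40 (0.862), Sqstm1 (0.851) and B2m (0.851). Without the Siglech and C1q points, r lay from 0.821 to 0.942 for the genes named with Vsir. It lay from 0.736 to 0.804 for those named with Selplg and from 0.842 to 0.914 for those named with Lgals9. Slc25a53 ranged from 2.91 to 21.7 CPM over the groups. All these values describe groups that differ in depth, and no p-value is given.

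Cells that met none of the 5 gates, 1363 in WT and 1260 in VISTA-KO, carried 122 and 109 CPM of Vsir, 900 and 875 CPM of Selplg and 197 and 188 CPM of Lgals9. These levels lay near those of the T cell gates.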

How the data were processed

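The data are 1 gene expression library per genotype of sorted tumor-infiltrating T cells (WT and VISTA-KO), with 1 receptor library each. The authors deposited untransformed UMI counts for each cell, made with Cell Ranger 5.0.0 (file header) on mm10 (GRCm38) with introns or strand settings not given in the sources used here; Seurat 4 is named in the submitters' processing notes. The kit is a 3′ v3.1 kit in one label and a 5′ kit in the others and the methods. The WT matrix held 10337 barcodes and 72098984 counts and the VISTA-KO matrix 10085 barcodes and 59916814 counts, and 144 barcodes occur among the kept cells of both. No clustering was run. Doublets were kept, since no caller was run. As an alternative, cells with 2 or more productive beta chains were left out. In the Siglech and C1q gates this alternative left out every cell with a productive receptor chain. Such cells were 19.0% and 19.6% of Siglech cells and 38.7% and 73.0% of C1q cells in WT and VISTA-KO.

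From the deposited counts, UMIs were summed over the cells of each gate and scaled to CPM. Levels carry exact Poisson intervals, ratios the conditional binomial interval of a ratio of 2 counts, and shares the Clopper-Pearson interval, all at 95% and for counting error only. With 1 library per genotype no test was made and no p-value is given. For calls over all genes, 5 CPM was added, genes with at least 20 CPM in one of the groups compared were kept, and the thresholds were 1.5-fold between libraries, 2-fold in both libraries between gates and 1.5-fold in both libraries between states and depths. Named genes are the 3 members, the listed pathway genes (1 of which is not reported here) and the 5 genes most like each member. The members and lists were chosen with earlier results of these data known. The depth bins, the depth matching, the clonotype sizes, the Ifit split and the gates without Cd3 UMIs were chosen after seeing the data. Promoter sequences and the motif share come from RefSeq. The counting scripts were tested on simulated data. Python 3.11.15, numpy 2.4.6, scipy 1.17.1, pandas 2.3.3 and matplotlib 3.10.9 were used.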

Additional observations from a re-analysis of the deposited data

Results flagged for a closer look

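The ratio of VISTA-KO to WT lay on opposite sides of 1, beyond counting error, in 3 pairs of gates. For Vsir it was 1.08 in conventional CD4 cells and 0.724 in Siglech cells. For Selplg it was 0.972 in the CD8 gate and 1.07 in regulatory cells, and 0.933 in Siglech cells against the same 1.07. The difference between gates was not tested in any of these, because each genotype is 1 library and the gates share cells. The Vsir interval in conventional CD4 cells begins at 1.00, and the Selplg ratio in the CD8 gate was 1.02 without the largest clonotype. Within bins of depth the Vsir ratio in Siglech cells was 0.481 (0.175–1.15) and 0.707 (0.493–1.01), with intervals that include 1.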

How the results depend on the processing

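No paired analysis was possible because each genotype is 1 library. Of 153 alternative ratios of VISTA-KO to WT, 131 moved by less than the counting interval of the main ratio, and of 228 alternative ratios to the CD8 gate 171 did. In these ratios Siglech cells stayed above CD8 cells in Selplg under each alternative. They stayed below them in Vsir and Lgals9 except under mean UMIs per cell, which follows depth. The share of cells with a Lgals9 UMI without thinning, which also follows depth, was higher in Siglech than in CD8 cells. It was 60.6% against 57.6% in WT and 65.2% against 59.2% in VISTA-KO. With mean UMIs per cell, the VISTA-KO to WT ratio of Vsir was 0.932 in conventional CD4, 0.661 in regulatory and 0.695 in C1q cells, that of Selplg 0.941 in CD8, 0.876 in conventional CD4, 0.676 in regulatory, 0.835 in Siglech and 0.574 in C1q cells, and that of Lgals9 0.904, 0.728 and 0.661 in conventional CD4, regulatory and C1q cells, with 4 member ratios past 1.5-fold. On that scale the ratio of Siglech to CD8 cells was 1.07 (WT) and 0.721 (VISTA-KO) for Vsir, 2.60 and 2.31 for Selplg and 1.32 and 1.38 for Lgals9. With the mean of the CPM of each cell, the Vsir ratio between libraries was 0.960 in conventional CD4 and 0.923 in regulatory cells, the Selplg ratio 0.933 and the Lgals9 ratio 1.03 in the CD8 gate, and the Siglech to CD8 ratio 0.510 for Vsir in WT and 1.41 and 1.35 for Selplg.

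Without the largest clonotype the VISTA-KO to WT ratio in the CD8 gate was 1.04 for Vsir and 1.02 for Selplg, and the WT Siglech to CD8 ratio of Selplg 1.59. Without mitochondrial and ribosomal protein genes the latter was 1.45 in WT and 1.38 in VISTA-KO. Doubled gate thresholds gave 0.987 for Lgals9 in conventional CD4 cells, and gates without shared cells 1.08 for Selplg there. Without cells that show signs of doublets, Selplg was 1.57 for Siglech to CD8 in WT and 0.867 between libraries in C1q cells, and 1 member ratio passed 1.5-fold, Vsir in Siglech cells at 0.549. Without the 5% of cells with most UMIs, Vsir was 0.968 in regulatory cells, Selplg 1.39 for Siglech to CD8 in VISTA-KO, and 1 ratio passed 1.5-fold, Vsir in Siglech cells at 0.630. Without cells with Cd3 UMIs, an alternative chosen after seeing the data, the Siglech to CD8 ratio was 0.348 for Vsir in VISTA-KO and 1.80 and 1.58 for Selplg, the Selplg ratio between libraries in Siglech cells 0.855, and 1 ratio passed 1.5-fold, Vsir in Siglech cells at 0.561. Leaving out receptor chains as well gave 0.348, 1.80 and 1.58. The Vsir ratio between libraries in Siglech cells kept its direction under each alternative of CPM or UMIs per cell. It lay from 0.549 to 0.743, on 72 VISTA-KO UMIs before any were left out. At 4000 to under 8000 and at 8000 to under 16000 UMIs it was 0.481 and 0.707, each with an interval that includes 1. The share of Siglech cells with a Vsir UMI did not keep the direction. That share was 9.55% in WT and 10.2% in VISTA-KO when thinned to 2000 UMIs, with intervals that overlap. It was 24.3% and 16.9% when thinned to 4000 UMIs, and 44.8% and 37.7% without thinning.

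In dividing CD8 cells thinned to 2000 UMIs, the ratio was 0.660 and 0.654 for Vsir, 0.823 for Selplg and 0.934 for Lgals9 in VISTA-KO. At 4000 to under 8000 UMIs, chosen after seeing the data, it was 1.22 (reversed) and 0.860 for Vsir, 0.928 and 0.988 for Selplg and 1.03 for Lgals9 in WT, where the cells compared were fewer. In WT CD8 cells with Pdcd1 the Vsir ratio also changed sides, from 0.858 over all depths to 1.14 in that bin. Counting error is wide in Siglech and C1q cells, with 72 to 375 UMIs of Vsir or Lgals9 in a library, and 1 library per genotype gives no measure of the spread between mice.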
